A study of Mus musculus with 4 samples.

Results

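Hedgehog signaling is transmitted by a small set of proteins, and 7 of their genes were followed here among the 24532 genes of the series. They are the receptor Ptch1, the signal transducer Smo, the inhibitors Hhip and Sufu, and the transcription factors Gli1, Gli2 and Gli3. Each was found in the gene table by its symbol, and all 7 were above 0 in every library. Hhip was chosen by its FPKM, since it was among the genes with the largest fall in young injured cartilage, and the other 6 genes were grouped with it by their role with earlier results of these data known. What follows is therefore a description and not a test.

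Secreted Hedgehog ligands bind Ptch1, which otherwise keeps Smo inactive. Active Smo acts at the primary cilium and lets the Gli proteins turn on their target genes, whereas Sufu binds Gli proteins and holds them back. Gli1 is an activator, Gli2 acts mainly as an activator and Gli3 mainly as a repressor. Ptch1, Hhip and Gli1 are themselves targets, and as Ptch1 and Hhip take up ligand at the cell surface, they limit the signal that induces them. In cartilage the ligand is Indian hedgehog (Ihh), which is made by chondrocytes that are about to become hypertrophic and which, with parathyroid hormone-related protein (Pthlh), sets the pace of chondrocyte maturation.

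RNA was sequenced from knee cartilage of wild type C57BL/6 mice, male according to the methods, in 4 groups with 1 library each: sham and injured cartilage of young mice, and the same for adult mice. The young mice were 3 weeks old, while the labels give the adult mice as 12 weeks old in one place and 14 weeks in another and the study's methods name a younger age. The injured cartilage was collected 3 days after injury, which the labels call DMM surgery (destabilization of the medial meniscus) and the methods a full-thickness cartilage injury (FTCI) of the femur; the label of the adult sham library spans days 3 to 14. The cartilage of several mice was pooled in each library, with more mice in the injured pools than in the control pools, which the methods call uninjured, so that no difference has a replicate check and no SD can be given.

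Values are FPKM, fragment numbers corrected for the length of the transcript and the size of the library, which allow levels to be compared between genes of different length. Changes are log2 ratios of FPKM + 1, and a gene was counted as changed at 2-fold or more, a log2 ratio of at least 1 or at most -1. The ratios were calculated for 18181 genes above 0 in at least 1 library. Summed FPKM lay between 469939 and 533468, and since FPKM are already divided by library size, these sums do not show the depth of the libraries. The adult sham library stood apart, with 8390 genes at 0 against 7457 to 7714 in the others. Over the 10891 genes that reached 1 FPKM in each library, log2 ratios had a median of -0.04 for injury in young mice and 0.23 for injury in adult mice, and it was -0.30 for adult against young sham and -0.07 for adult against young injured cartilage. Median-of-ratios scaling, which gives each library 1 factor so that most genes stay level, moved these medians to -0.05, -0.06, 0.07 and 0.03. The 10 listed chondrocyte markers summed to between 10318 and 17875 FPKM and were above 0 in all libraries, but not all were abundant in adult cartilage. In adult sham cartilage Comp (7203 FPKM) and Col2a1 (3173 FPKM) made up most of the sum, while Matn1 and Matn3 were at 2.65 and 2.30 FPKM.

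After injury the expression of Hhip, Gli1 and Ptch1 fell in young cartilage, and that of Hhip, Gli1, Gli2 and Smo fell in adult cartilage. None of the 7 genes rose by 2-fold or more at either age. In young mice 3 of the 7 genes were at least 2-fold lower, against 1.27% of all genes tested, and 0 were at least 2-fold higher, against 4.57%. In adult mice 4 of the 7 were at least 2-fold lower, against 1.46% of all genes, and 0 higher, against 6.90%. These shares include genes below 1 FPKM in every library, which cannot reach 2-fold on the scale of FPKM + 1. The shares are therefore larger among genes that reached 1 FPKM in some library. The median log2 ratio of the 7 genes was -0.58 in young and -1.02 in adult mice, whereas that of all genes tested was 0 and 0.14. The young counts include Hhip, whose fall chose it, and are given as values only.

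**Figure D1:**
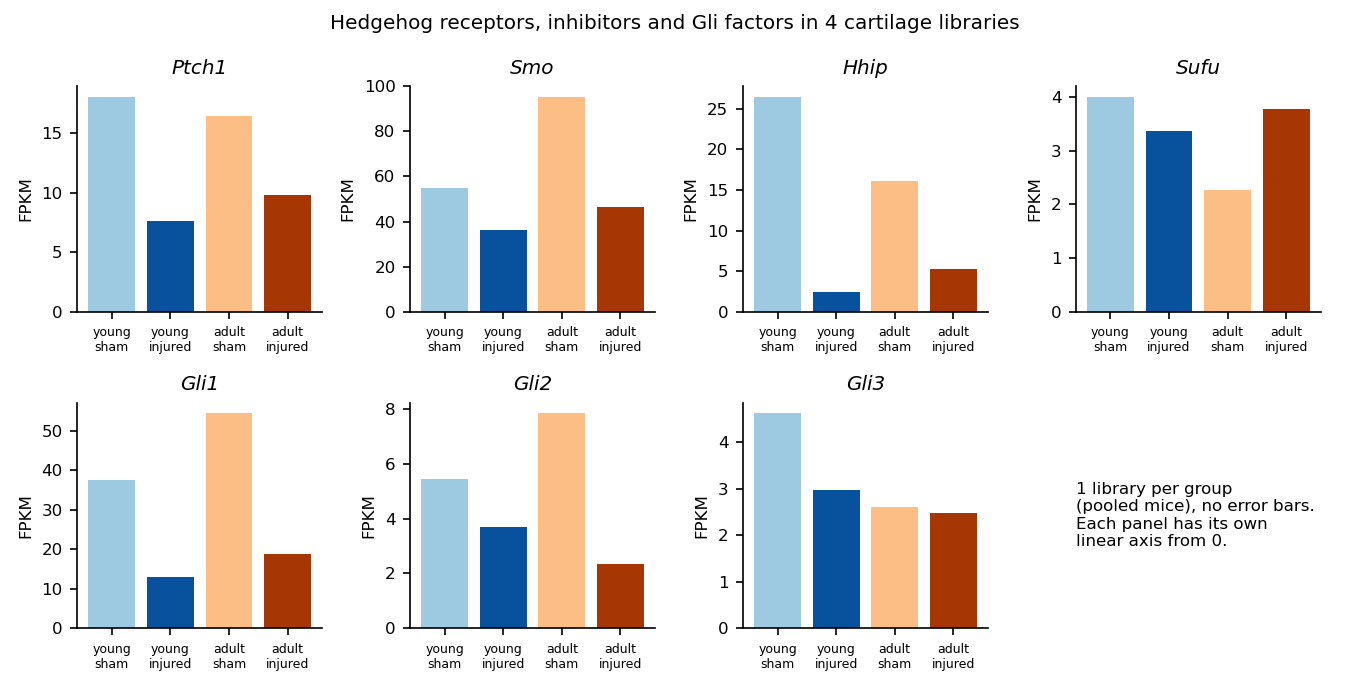
FPKM of each gene in the 4 libraries, with 1 bar per library on a linear axis that starts at 0 and differs between panels. The injured bar is below the sham bar of the same age for all genes except Sufu in adult mice, which goes from 2.26 to 3.78 FPKM; for Gli3 in adult mice the bars differ by only 2.59 against 2.47 FPKM.

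Hhip is a membrane-anchored decoy that binds all Hedgehog ligands and keeps them from Ptch1. The gene lies on chromosome 8, from 79965850 to 80058060 (RefSeq, GRCm38.p6, the assembly of mm10, as for all coordinates here). Hhip was at 26.5 FPKM in young sham cartilage against 2.44 after injury, and 16.1 FPKM in adult sham cartilage against 5.24 after injury. Both injured libraries were thus below both sham libraries, and the young injured library was the lowest. The plain ratio of FPKM was 10.8-fold lower after injury in young and 3.08-fold lower in adult mice, and the log2 ratios of FPKM + 1 were -3.00 and -1.46. Among the 18181 genes tested, Hhip was number 4 in the order of the falls in young mice and number 109 in adult mice. The fall was larger in young mice by 1.54 on the log2 scale, a difference that has no replicate check. In rank among all genes tested, Hhip moved from a level at or above that of 87.2% of genes in young sham cartilage to one at or above that of 41.5% of genes in young injured cartilage.

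Ptch1 (chromosome 13, 63508328 to 63573460) is the receptor that binds the ligand and represses Smo. Its level was 18.1 FPKM in young sham cartilage against 7.64 after injury, and 16.4 FPKM in adult sham cartilage against 9.86 after injury. The sham libraries were close to each other and both injured libraries were below them. The log2 ratio after injury was -1.14 in young mice, where Ptch1 fell 2.37-fold in plain FPKM, and -0.68 in adult mice, where it did not reach 2-fold. With median-of-ratios scaling the adult value was -1.003, just past the threshold, and with a pseudocount of 5 FPKM the young value was -0.87, short of it. In the order of young log2 ratios Ptch1 was the last of the 7 genes past 2-fold, and the next gene was Smo at -0.58.

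The DNA before the annotated start of Hhip and Ptch1, the inhibitor and the receptor that both fell in young mice, is shown because Gli proteins act on such target genes through the motif GACCACCCA. The stretches are from RefSeq on GRCm38.p6, are read 5′ to 3′ on the minus strand, which both genes use, and overlap 0 exons of the GENCODE annotation. For both genes the start used lies inside the span given above, so that it is not the outermost one. The Hhip stretch begins where the span of the gene ends, and the Ptch1 stretch lies in an intron of longer Ptch1 transcripts. Capitals mark the first stretch found with the fewest differences from the motif. In Ptch1 other stretches have as few, and how common matches this loose are was not counted.
Hhip, chr8:80058061-80058258: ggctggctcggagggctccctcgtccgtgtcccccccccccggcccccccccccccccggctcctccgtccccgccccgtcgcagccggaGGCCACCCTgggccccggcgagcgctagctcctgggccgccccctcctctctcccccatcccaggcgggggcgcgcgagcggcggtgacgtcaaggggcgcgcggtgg
Ptch1, chr13:63565736-63565985: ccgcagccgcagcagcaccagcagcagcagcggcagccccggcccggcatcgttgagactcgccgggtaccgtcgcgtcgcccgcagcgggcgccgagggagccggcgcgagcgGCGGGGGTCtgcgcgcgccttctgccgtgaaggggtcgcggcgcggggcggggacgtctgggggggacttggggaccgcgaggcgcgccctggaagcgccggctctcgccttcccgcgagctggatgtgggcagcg

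Counted from 1 at the 5′ end of the motif, with the motif's base first, the Hhip letters differ from it by A2G and A9T, and the Ptch1 letters, on the opposite strand, by A5C, C8G and A9C. The motif itself was searched on both strands in windows of 300 bases around annotated starts, from a table of RefSeq promoters in which 6 of the 7 genes were matched; the window of Gli1 was not analysed here. None of the 6 windows held it, nor did any hold it with 1 mismatch. Of all 32851 windows, 0.253% held the motif and 6.74% held it with at most 1 mismatch. That the letters are absent from these short windows says nothing of Gli binding elsewhere at these genes. The 6 windows were rich in G and C, from 56.3% in Sufu to 76.3% in Ptch1, where the median of all windows was 52.7%, and held 12 to 47 CpG dinucleotides where the median was 7.

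Smo (chromosome 6, 29735497 to 29761366), the transducer that Ptch1 represses, was at 55.1 FPKM in young sham cartilage against 36.4 after injury, and 95.3 FPKM in adult sham cartilage against 46.6 after injury. It was the most abundant of the 7 genes in each library, and the adult sham library stood out as the highest. Its log2 ratio was -0.58 after injury in young mice and -1.02 after injury in adult mice. The adult fall lay at the threshold, and it was -0.93 when FPKM were rescaled so that each library had an equal sum (TPM) and -1.35 with median-of-ratios scaling.

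Sufu (chromosome 19, 46396896 to 46488804), the cytoplasmic inhibitor of the Gli proteins, was low in all libraries. Its level was 4.004 FPKM in young sham cartilage against 3.36 after injury, and 2.26 FPKM in adult sham cartilage against 3.78 after injury. The adult sham library was the lowest and the other libraries were close together. Its log2 ratio was -0.20 for young injury and 0.55 for adult injury, both short of 2-fold.

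Gli1 (chromosome 10, 127329882 to 127341579), a transcriptional activator and a widely used readout of Hedgehog activity, was at 37.6 FPKM in young sham cartilage against 13.0 after injury, and 54.5 FPKM in adult sham cartilage against 18.9 after injury. Both injured libraries were below both sham libraries. The fall was nearly the same at both ages, 2.91-fold in young and 2.88-fold in adult mice in plain FPKM, with log2 ratios of -1.47 and -1.48. Among the 7 genes, Gli1 and Hhip were the genes whose log2 ratios stayed below -1 at both ages under each of the 7 alternatives listed with the methods. Of the 31-base words of its transcript, 6.68% also occur in other annotated genes, the largest share among the 7 genes, so that a small part of its reads may be shared.

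Gli2 (chromosome 1, 118834061 to 119054405) was at 5.45 FPKM in young sham cartilage against 3.69 after injury, and 7.84 FPKM in adult sham cartilage against 2.33 after injury. Its log2 ratio was -0.46 for young injury and -1.41 for adult injury, so that the adult fall was the larger one, by 0.95 on the log2 scale. With a pseudocount of 5 FPKM, which weighs low values less, the adult ratio was -0.81. Gli3 (chromosome 13, 15463723 to 15730026), the main repressor of the family, was at 4.62 FPKM in young sham cartilage against 2.98 after injury, and 2.59 FPKM in adult sham cartilage against 2.47 after injury. The young sham library was the highest and the other libraries were close together. Gli3 thus had log2 ratios of -0.50 for young injury and -0.05 for adult injury, and the adult value was 0.02 on the TPM scale and -0.44 after quantile normalization.

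**Figure D2:**
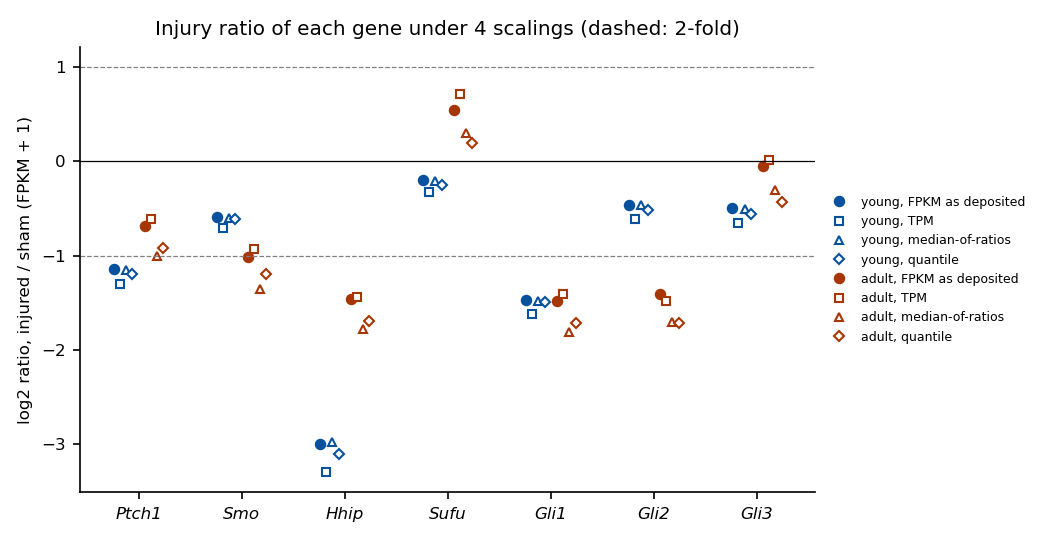
Log2 ratio of injured to sham cartilage (FPKM + 1) for each gene in young (blue) and adult (brown) mice, with the deposited FPKM as filled circles and 3 rescalings as open symbols; dashed lines mark 2-fold. Hhip lies between -3.30 and -2.97 in young mice, below all its adult values of -1.77 to -1.44, whereas the young and adult values of Gli1 overlap.

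The adult injured library was also compared with young sham cartilage, because the adult sham library stood apart. This comparison was added after the data were seen and mixes age with injury. The log2 ratio was -2.14 for Hhip, -0.96 for Gli1, -0.95 for Gli2, -0.81 for Ptch1, -0.70 for Gli3, -0.24 for Smo and -0.07 for Sufu. Only Hhip remained past 2-fold, but its fall from this same young sham library chose it, so that its value here is no check. Gli1 and Gli2 lay just short of the threshold. The adult falls of Gli1, Gli2 and Smo past 2-fold thus rest on the adult sham library, in which these genes were highest.

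The balance between the genes was compared within each library, where the scaling between libraries has no part. The ratio of Hhip to Ptch1 in FPKM was 1.46 in young sham cartilage against 0.319 after injury, and 0.980 in adult sham cartilage against 0.531 after injury. The FPKM of Hhip thus exceeded that of Ptch1 in young sham cartilage and was well below it in young injured cartilage. Protein levels were not measured. The ratio of Gli1 to Ptch1 was 2.08, 1.70, 3.31 and 1.91 in the same order. Gli1 stayed above Ptch1 in all libraries and was lower relative to it after injury at both ages. Relative to Smo, Ptch1 was at 0.328, 0.210, 0.172 and 0.212, with the young sham library the highest. Of the summed FPKM of the 3 Gli genes, Gli1 made up 78.9% in young sham cartilage against 66.04% after injury, and 83.9% in adult sham cartilage against 79.7% after injury. The share of Gli3 was 9.67%, 15.2%, 3.998% and 10.4% in the same order, higher after injury at both ages although its own FPKM were lower. That of Gli2 was 11.4%, 18.8%, 12.1% and 9.85%, higher after injury in young but lower in adult mice.

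**Figure D3:**
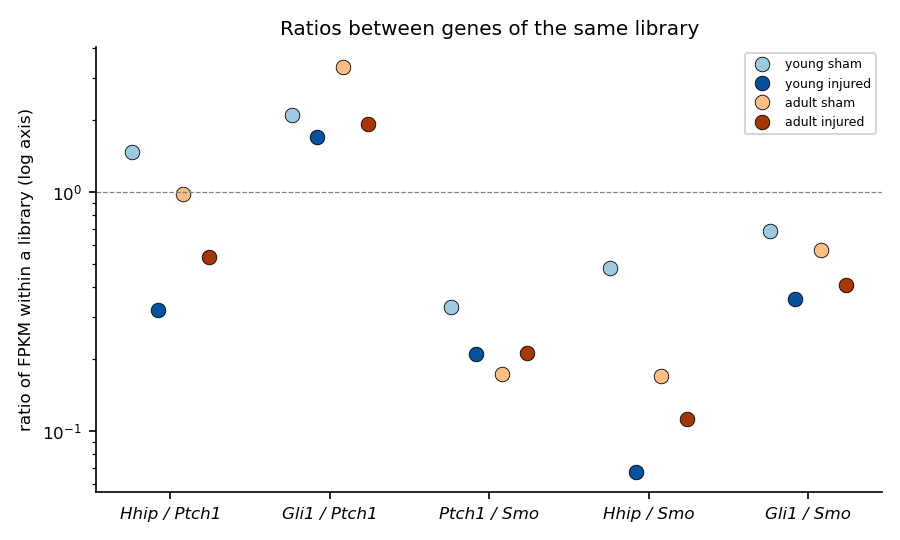
Ratio of the FPKM of 2 genes in the same library on a log axis, with 1 point per library; the dashed line marks equal levels. Hhip / Ptch1 goes from 1.46 to 0.319 in young and from 0.980 to 0.531 in adult mice, and Hhip / Smo from 0.481 to 0.0670 and from 0.169 to 0.112.

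Sham cartilage of the 2 ages was compared to see how the genes changed with age, with the same sham libraries that serve as controls above. No gene of the 7 reached 2-fold in either direction, where 2.66% of all genes tested were at least 2-fold higher and 10.6% at least 2-fold lower in adult mice. The log2 ratios of adult to young sham cartilage were 0.78 for Smo, 0.52 for Gli1, 0.45 for Gli2, -0.13 for Ptch1, -0.62 for Sufu, -0.64 for Gli3 and -0.68 for Hhip. Smo passed 2-fold with median-of-ratios scaling, at 1.21, and with quantile normalization, at 1.03. The direction of Ptch1 depended on the scaling, with values from -0.16 to 0.29.

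Between the injured libraries, again no gene of the 7 reached 2-fold, against 1.80% of all genes at least 2-fold higher and 3.09% at least 2-fold lower in adult mice. Hhip came nearest, with a log2 ratio of 0.86 for adult against young injured cartilage, and it was at 1.12 on the TPM scale. Gli1 was at 0.51, Smo at 0.35, Ptch1 at 0.33 and Sufu at 0.13, all higher in adult mice, while Gli3 was at -0.20 and Gli2 at -0.49.

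The order of the levels also differed between libraries, although with 1 library per group no spread is known against which neighbours could be told apart. In young sham cartilage it was Smo, Gli1, Hhip, Ptch1, Gli2, Gli3 and Sufu. In young injured cartilage Hhip was the lowest of all, below Gli3 and Sufu. In adult sham cartilage Ptch1 and Hhip were nearly level, at 16.4 and 16.1 FPKM, and in adult injured cartilage Gli2 was the lowest.

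Other genes of the pathway were taken from lists by role, 58 genes in all, of which 57 were above 0 in at least 1 library. In young mice 5 of the 57 were at least 2-fold lower after injury and 2 were higher, where 1.27% and 4.57% of all genes tested were. In adult mice 3 were lower and 3 higher, where 1.46% and 6.90% of all genes were, so that the higher genes were no larger a share of the lists than of all genes. The adult split depended on the scaling, with 6 lower and 0 higher with median-of-ratios scaling and 4 lower and 0 higher with quantile normalization. Of the 18181 genes tested, 527 were then lower and 802 higher with median-of-ratios scaling, and 489 and 725 with quantile normalization. The median log2 ratio of the 57 listed genes was -0.20 for young injury and 0.05 for adult injury, beside 0 and 0.14 for all genes tested. With median-of-ratios scaling the adult median was -0.10, beside 0.

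Of the ligands, Ihh was the only gene above 1 FPKM. It was at 2.59 FPKM in young sham cartilage against 1.34 after injury, and 16.6 FPKM in adult sham cartilage against 7.55 after injury, and both adult libraries were above both young ones. Ihh thus had a log2 ratio of -0.61 for young injury and fell in adult mice, at -1.04, or -0.997 on the TPM scale, just short of 2-fold. Adult exceeded young cartilage by 2.30 between the sham libraries and by 1.87 between the injured libraries on the log2 scale. Dhh stayed at or below 0.242 FPKM and Shh was listed at 0 in all libraries.

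Of the 6 other proteins that bind the ligand at the cell surface, Gas1 and Boc fell after injury at both ages. Gas1, a co-receptor that helps the ligand reach Ptch1, was at 113.4 FPKM in young sham cartilage against 22.3 after injury, and 147.4 FPKM in adult sham cartilage against 55.1 after injury. Its log2 ratios were -2.29 in young mice, the lowest of the 57 listed genes, and -1.40 in adult mice. Boc, another co-receptor, was at 120.0 FPKM in young sham cartilage against 46.9 after injury, and at 72.4 FPKM in adult sham cartilage against 28.2 after injury, with log2 ratios of -1.34 and -1.33. Cdon, the co-receptor related to Boc, was at 48.5, 26.7, 44.1 and 27.1 FPKM in the order of libraries used for Boc, with ratios of -0.84 and -0.68 that stayed short of 2-fold, although the adult value was -1.01 with median-of-ratios scaling. Gas1 and Boc were more abundant than Ptch1 in every library.

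Gpc3, a proteoglycan that competes for ligand, was mainly a gene of young cartilage, at 12.5 FPKM in young sham cartilage against 5.84 after injury, and 0.894 FPKM in adult sham cartilage against 0.626 after injury. The log2 ratio of adult to young sham cartilage was -2.84 and that of injury in young mice -0.98. Lrp2 did not exceed 0.00247 FPKM in any library.

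Among the 6 genes that attach lipid to the ligand or release it, Disp1, which releases the ligand from the cell, fell in young mice, from 18.4 to 7.20 FPKM with a log2 ratio of -1.24. In adult mice it went from 27.2 to 18.9 FPKM, a ratio of -0.50. Scube1, a secreted protein related to the release factor Scube2, was higher in adult mice, at 23.0 against 5.54 FPKM in sham and 21.2 against 6.49 FPKM in injured cartilage. Scube2 and Scube3 were low, at most 1.67 and 2.27 FPKM, and lower in adult sham cartilage by log2 ratios of -1.20 and -1.23.

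The 22 regulators of Smo and the Gli proteins showed a median of -0.18 on the log2 scale for young injury and 0.24 for adult injury. At least 2-fold higher were 1 gene in young and 3 genes in adult mice, and 0 were 2-fold lower at either age, beside 4.57% and 6.90% of all genes higher and 1.27% and 1.46% lower. Arrb2, a β-arrestin that also serves many other receptors, rose from 5.57 to 18.2 FPKM in young mice, a ratio of 1.55, and went from 9.72 to 20.2 FPKM in adult mice, a ratio of 0.98. Prkaca, the catalytic subunit of protein kinase A, Cul3, a ubiquitin ligase scaffold, and Iqce, a cilium protein, passed 2-fold in adult mice only, with ratios of 1.22, 1.02 and 1.17. These genes and Csnk1a1, a casein kinase, were also at least 2-fold lower in adult than in young sham cartilage, with log2 ratios from -1.20 to -1.02. With median-of-ratios scaling, none of these values of Prkaca, Cul3, Iqce and Csnk1a1 reached 2-fold. The adult injury median of the 22 regulators then turned to -0.06, with 0 genes at least 2-fold higher and 2 lower, Evc at -1.11 and Mgrn1 at -1.01. Of the 18181 genes tested, 802 were higher and 527 lower with this scaling. None of the 10 cilium genes reached 2-fold after injury, and their ratios lay between -0.55 and 0.06 in young and between -0.38 and 0.41 in adult mice.

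Of 11 reported targets other than Ptch1, Hhip and Gli1, Pthlh fell from 8.69 to 3.49 FPKM in young mice, a log2 ratio of -1.11, and was at 3.92 and 3.46 FPKM in adult sham and injured cartilage. Ccnd2, a D-type cyclin, fell from 41.2 to 17.6 FPKM in young mice, a ratio of -1.18, and had a ratio of -0.52 in adult mice. Ccnd1, the related cyclin, rose in young mice, from 3.07 to 8.66 FPKM with a ratio of 1.25, and had a ratio of 0.22 in adult mice. At the median the 11 targets were at 0.01 after young and 0.08 after adult injury, but 4 of them, Foxf1, Foxf2, Foxl1 and Mycn, did not exceed 0.312 FPKM and can hardly move on the scale of FPKM + 1. The 7 targets whose mean reached 1 FPKM, a division made after their values were seen, were at -0.44 after young and -0.14 after adult injury. With median-of-ratios scaling the adult median of all 11 was -0.08.

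**Figure D4:**
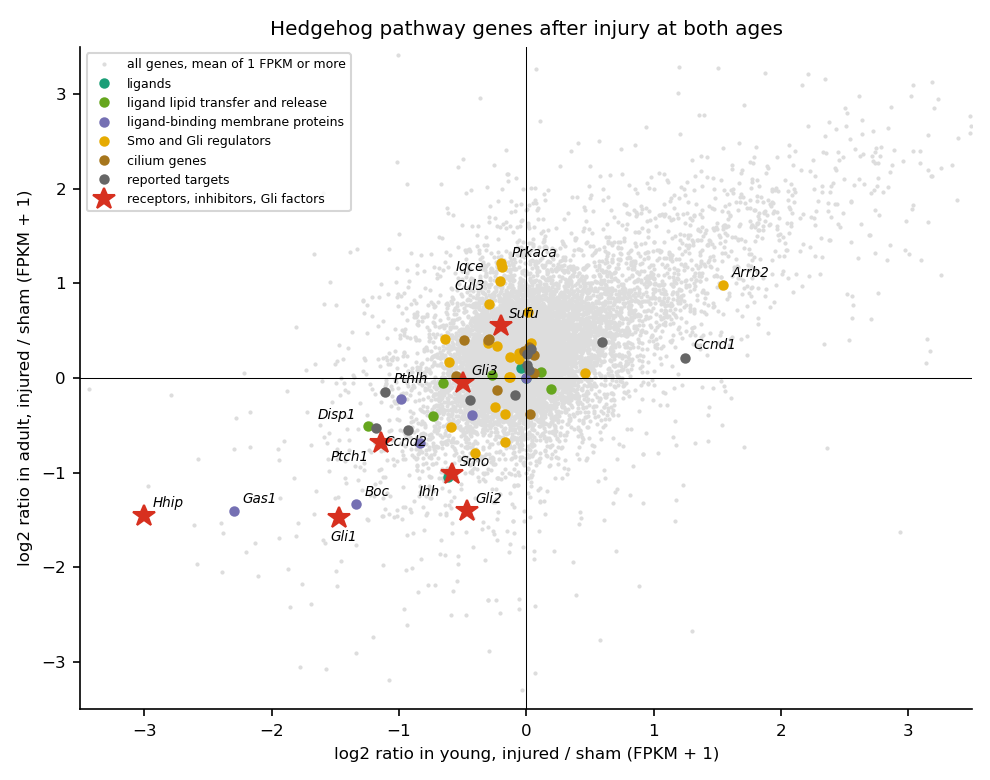
Log2 ratio after injury (FPKM + 1) in young (x axis) and adult (y axis) mice, with grey points for genes whose mean reached 1 FPKM, colored points for the pathway lists and stars for the 7 genes; 53 of 12418 grey genes lie outside the axes. Hhip, Gas1, Gli1 and Boc lie at the lower left, below -1 at both ages, while most regulators and cilium genes lie near 0 in young mice.

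In these bulk samples fewer cells of a type and less RNA per cell cannot be told apart, so markers of the cells in the tissue are given beside the falls. The chondrocyte list had a median log2 ratio after injury of -0.26 in young mice, where 1 of its 10 genes fell by 2-fold or more and 0 rose, and of 0.34 in adult mice, where 0 fell and 4 rose. All 10 macrophage markers rose at both ages, with medians of 3.17 and 2.11 and summed levels of 185.6 FPKM in young sham cartilage against 1823 after injury, and 303.8 FPKM in adult sham cartilage against 1579 after injury. All 4 endothelial markers rose at both ages, 3 of the 4 osteoclast markers rose in young mice and all 4 in adult mice, and of the 5 markers of proliferating cells 3 rose in young mice and all 5 in adult mice. Neutrophil, erythroid, osteoblast and osteocyte and hypertrophic chondrocyte lists had medians of 0.86, 0.89, 0.15 and 0.06 for young injury and 0.24, -0.35, 0.33 and 0.61 in adult mice. Single genes of these lists moved further and in both directions. In young mice 3 neutrophil, 1 erythroid, 2 osteoblast and osteocyte and 2 hypertrophic markers rose and 1 hypertrophic marker fell, and in adult mice 2 osteoblast and osteocyte and 3 hypertrophic markers rose, while 2 erythroid markers and 1 osteoblast and osteocyte marker fell. The 6 muscle genes had a median of -0.04 in young but -1.32 in adult mice, where their sum went from 1113 FPKM in sham to 328.8 in injured cartilage. The fibroblast and superficial layer list was at 0.52 and 0.99 at the median. Of its 9 genes, 3 rose and 1 fell in young mice, and 4 rose and 1 fell in adult mice. In young mice Prg4, the lubricin of the cartilage surface and synovium, fell from 2049 to 421.3 FPKM. In adult mice Dpt fell, at -1.08, while Prg4 went from 3565 to 2658 FPKM. Between the sham libraries, 7 of the 10 chondrocyte markers and all 5 markers of proliferating cells were at least 2-fold lower in adult mice, as were 4 of the 5 erythroid and 2 of the 9 hypertrophic chondrocyte markers. At least 2-fold higher were 5 of the 10 macrophage, 3 of the 6 muscle, 4 of the 6 osteoblast and osteocyte, 3 of the 9 hypertrophic chondrocyte, 1 erythroid, 1 chondrocyte and 1 neutrophil marker. The erythroid gene, a globin (Hbb-bs), had the largest rise of any marker in the deposited FPKM, with a log2 ratio of 4.75. On the TPM scale the largest was in the osteoblast and osteocyte list, at 4.77 against 4.72 in the erythroid list. The chondrocyte gene was Comp at 2.44. With median-of-ratios scaling the lower counts were 2 for the erythroid and 0 for the hypertrophic list. With median-of-ratios scaling the adult injury medians were lower, at 0.0022 for the chondrocyte, -0.09 for the neutrophil, -0.0062 for the osteoblast and osteocyte and 1.81 for the macrophage list, and 3 chondrocyte, 3 endothelial and 4 proliferation markers rose. The part of any of these shifts in the levels of the 7 genes was not tested.

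**Figure D5:**
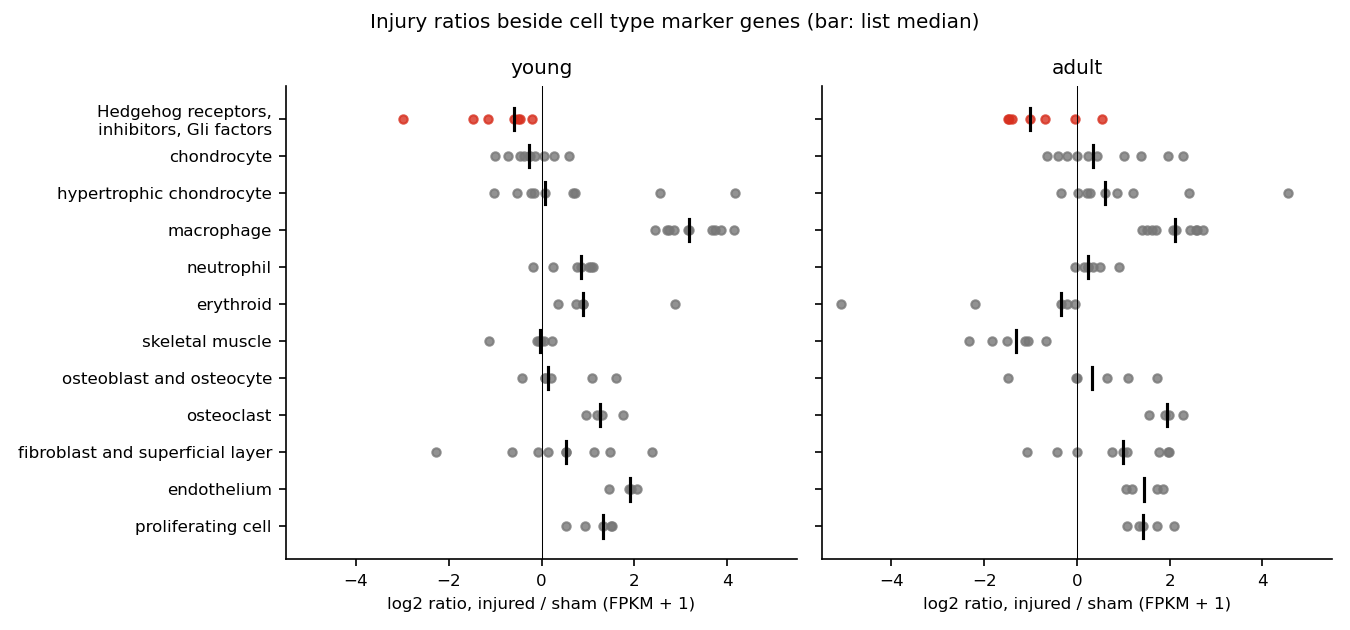
Log2 ratio after injury (FPKM + 1) of each of the 7 genes (red) and of cell type marker genes (grey) in young (left) and adult (right) mice, with a bar at each list's median. The 7 genes have medians of -0.58 and -1.02, below the chondrocyte medians of -0.26 and 0.34, and the macrophage points all lie at 1.41 or more.

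Genes with a pattern most like those of the targets were found by the root mean square difference of log2 (FPKM + 1), centered on its own mean, over the 4 libraries among the 12418 genes whose mean reached 1 FPKM. Nearest to Hhip were Emilin3 (0.274), Nr4a1 (0.315), Itih5 (0.317), Tesc (0.321) and Wnt9a (0.324). Emilin3, a matrix glycoprotein, was at 8.59 FPKM in young sham cartilage against 0.841 after injury, and 5.38 FPKM in adult sham cartilage against 1.05 after injury, and Wnt9a, a Wnt ligand, at 5.03, 0.374, 4.85 and 0.749. Nearest to Ptch1 were Pamr1 (0.0318), the microRNA gene Mir7019 (0.0632), Lyve1 (0.0639), Srcin1 (0.0759) and Etv4 (0.0781). Nearest to Gli1 were Prnp (0.0989), Mall (0.119), Pcp4l1 (0.123), Dkk3 (0.137) and 4930523C07Rik (0.158). The 3 targets were not nearest to each other. Seen from Hhip, Gli1 was number 32 and Ptch1 number 62, with differences of 0.581 and 0.710. Seen from Ptch1, however, Gli1 was number 778 and Hhip number 8707, and seen from Gli1, Ptch1 was number 87 and Hhip number 543. With 4 libraries many genes share a pattern, and the distances are smaller for genes that vary less.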

How the data were processed

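RNA was sequenced from 4 libraries of pooled knee cartilage made with a stranded poly-A kit. The authors deposited FPKM per gene for RefSeq genes on mm10. The submitters' processing notes name HISAT2 2.1.0 and StringTie 1.3.4d, and also STAR and SAMtools, without their roles. No read counts were used here, so that depth and counting error are not given. From the deposited FPKM, log2 ratios of FPKM + 1 were calculated without further scaling for 4 comparisons and counted at 2-fold. With 1 library per group no p-value was calculated. The members, lists and thresholds were chosen with earlier results of these data known. Named were the 7 genes, all ligands and ligand-binding proteins, list members that reached 2-fold in a comparison with at least 1 FPKM in 1 library, and the 5 genes nearest in pattern to Hhip, Ptch1 and Gli1 by root mean square difference. 1 gene that this rule names is not reported here. Prg4, Dpt, Hbb-bs, the 4 low targets, Evc, Mgrn1 and the 4 chondrocyte markers given by level were singled out after their values were seen. Symbols not in the table were matched through RefSeq synonyms and Entrez identifiers. The 7 alternatives set the pseudocount to 0.1 or to 5 FPKM, kept only genes that reached 1 FPKM in some library, rescaled FPKM to TPM, to median-of-ratios factors or by quantile normalization, and lowered the threshold to 1.5-fold. Calculations were tested on simulated data and used Python 3.11.15, numpy 2.4.6, pandas 2.3.3 and matplotlib 3.10.9.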

Additional observations from a re-analysis of the deposited data

Results flagged for a closer look

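The ratio after injury had opposite signs in young and adult mice for 7 of the Hedgehog pathway genes named above, which is given as a value since the difference between the ages was not tested. Opposite signs were common, in 38.6% of the 18181 genes tested and in 22 of the 57 other pathway genes (38.6%), and among the 7 receptors, inhibitors and Gli factors Sufu was the only one. For Sufu the log2 ratio was -0.20 for young injury and 0.55 for adult injury, a difference of 0.75. The adult ratio exceeded the young one by 1.41 for Prkaca, by 1.36 for Iqce, by 1.23 for Cul3 and by 1.08 for Csnk1a1. For Scube1 the order was the reverse, with a difference of -0.31. Dhh, which did not exceed 0.242 FPKM, differed by 0.15. With median-of-ratios scaling the signs stayed opposite for all 7 genes, while with quantile normalization Dhh was below 0 at both ages, and the adult value of Sufu with median-of-ratios scaling was 0.31.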

How the results depend on the processing

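The differences have no replicate check. No paired analysis was possible because each group has only 1 library. None of the log2 ratios of the 7 genes that were past 2-fold changed sign under any alternative. Of the 28 ratios, 26 kept their side of 2-fold on the TPM scale, 26 with median-of-ratios scaling, 27 with quantile normalization, 27 with a pseudocount of 0.1 FPKM, 25 with 5 FPKM and 28 with the filter. With 5 FPKM, Ptch1 in young mice was no longer past 2-fold. After injury in adult mice 2 of the 7 genes were at least 2-fold lower with a pseudocount of 5 FPKM, where 128 of all genes were. The number was 1 when adult injured was set against young sham cartilage. In this alternative, added after the data were seen, 754 of all genes were lower. In adult against young sham cartilage 1 of the 7 was higher with median-of-ratios scaling or quantile normalization, where 1065 and 916 of the 18181 genes tested were. At 1.5-fold 1 of the 7 was higher and 3 were lower, where 1189 and 4560 of all genes were. In adult against young injured cartilage 1 was higher on the TPM scale, with a pseudocount of 0.1 FPKM and at 1.5-fold. Of all genes, 625, 843 and 1001 were higher in the same order. The other pathway genes past 2-fold in any comparison numbered 8 with a pseudocount of 5 FPKM and 31 at 1.5-fold.

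Counts over all genes moved by more than 1.5 times as follows. With a pseudocount of 0.1 FPKM, 1817 genes were higher and 768 lower after injury in young mice, 2882 and 656 in adult mice, 1040 and 3840 in adult against young sham and 843 and 1503 in adult against young injured cartilage. With 5 FPKM the same counts were 343 and 79, 434 and 128, 225 and 670, and 143 and 210. At 1.5-fold they were 1727 and 874, 3262 and 720, 1189 and 4560, and 1001 and 1779. On the TPM scale 430 genes were lower after injury in young mice, 2009 higher in adult mice and 625 higher in adult against young injured cartilage. The unscaled FPKM gave 1255 higher and 266 lower genes for adult injury, and 484 and 1934 for adult against young sham. With median-of-ratios scaling these became 802 and 527, and 1065 and 932. Quantile normalization gave 725 and 489, and 916 and 959. The split into higher and lower genes thus depended on the scaling where the adult sham library was used. It also moved elsewhere. In adult against young injured cartilage it went from 328 higher and 561 lower genes to 625 and 619 on the TPM scale.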
